A study of Mus musculus with 10 samples.

Results

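Bivalent islands that carried H3K4me3 and H3K27me3 in WT mouse embryonic stem cells, and in which no H3K4me3 island was called after loss of BAF250a (KO), are described here. They were selected by their measured values: each is an interval of the WT H3K4me3 list that overlaps a WT H3K27me3 island by at least 1 bp and overlaps no KO H3K4me3 island. This rule found 318 of the 3054 WT bivalent islands, out of 28365 WT H3K4me3 islands. Of these, 75 lay between chr4:145000000 and 148000000, 25 lay between chr13:12800000 and 13100000, 50 lay on X and 4 on Y. The 2 autosomal segments are described apart, and the X and Y islands are only counted. The remaining 164 islands, on autosomes outside the 2 segments, are called KO-negative below, and the 2582 WT bivalent islands there that did overlap a KO H3K4me3 island are called kept. Absence of a KO H3K4me3 island is the selection itself and is not a finding.

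The KO cells carried a BAF250a knockout and received 1 µM 4-OH tamoxifen for 36 h, starting 4 h after passage, while the WT cells were given ethanol over the same period; genotype and drug cannot be told apart. Both were embryonic stem cells of 129/C57BL/6 background kept on mouse embryonic fibroblast feeders, and the labels do not say whether feeder cells were removed or which Cre was used. Chromatin fixed in 1% formaldehyde for 10 min was fragmented by micrococcal nuclease and short sonication before immunoprecipitation, and sequenced in 50 bp reads. Each genotype and mark had 1 library, and each genotype 1 input, so no difference could be set against a replicate spread, no p-value was computed, and each comparison is one between libraries.

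H3K4me3 is laid down at active and poised promoters by COMPASS-type methyltransferases, and H3K27me3 is laid down by Polycomb repressive complex 2 over silent developmental genes. In embryonic stem cells both marks occur together at many promoters of developmental regulators, which is called a bivalent state, usually as a sharp H3K4me3 peak inside a broader H3K27me3 domain. BAF250a, the product of Arid1a, is a subunit of the BAF (SWI/SNF) complex, which moves and evicts nucleosomes.

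The lists held 40978 H3K4me3 islands in KO against 28365 in WT, and 6833 H3K27me3 islands in KO against 8067 in WT. The KO and WT H3K4me3 islands contained 13512350 and 9565481 ChIP reads, and the KO and WT H3K27me3 islands 839422 and 1140878. Library totals are not given, so the depth of KO relative to WT is unknown, for ChIP and for input. Genotypes are compared mainly by fold over input, which is the ChIP reads over the input reads of an interval, corrected for the ratio of their depths. Input reads per kb are given unscaled, so a KO over WT ratio of them is read only against the same ratio at other regions. A place with no island has no count in the lists, which is not the same as a count of 0. No annotation of the build used, mm9, was at hand, so islands are given by position and no gene is named.

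The KO-negative islands were small, weakly covered pieces of WT H3K4me3. They made up 164 of 2746 WT bivalent islands (5.97%), close to the 1172 of 24199 WT H3K4me3 islands without H3K27me3 that also had no KO island (4.84%). For all WT H3K4me3 islands in the same autosomal space the count was 1336 of 26945 (4.96%), and over the whole list 1515 of 28365 (5.34%). A KO-negative island held a median of 37 WT H3K4me3 reads, with a 10th to 90th percentile of 26 to 79.2 and a full range of 21 to 1084. A kept island held a median of 190 reads, with a 10th to 90th percentile of 56 to 646. Fewer than 50 reads were found in 125 of the 164 KO-negative islands (76.2%), against 205 of the 2582 kept ones (7.94%), and 100 or more reads in 11 against 1970. The median width was 1200 bp in KO-negative and 3200 bp in kept islands. Read density differed less, at a median of 32.7 against 61.6 reads per kb. Together the 164 islands covered 236.6 kb and held 9297 reads, or 0.0972% of all WT reads in H3K4me3 islands.

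Enrichment over input, by contrast, was about equal at the middle and wider at the top. The median WT H3K4me3 fold over input was 2.50 in KO-negative islands (10th to 90th percentile 1.36 to 8.63) and 2.52 in kept ones (1.48 to 5.17). A fold of 5 or more was seen in 36 of 164 KO-negative islands (22.0%, exact binomial 95% interval 15.9 to 29.1%) and in 283 of 2582 kept ones (11.0%, 9.78 to 12.2%). The high folds sat on very low input: a KO-negative island held a median of 8 input reads, against 45 in a kept island, or 7.18 against 13.8 input reads per kb. Since a list takes an island with few reads only when its fold is high enough, these folds do not show that the KO-negative islands were as strongly marked. Both marks reached a fold of 2 or more in 69 of the 164 KO-negative islands (42.1%) and in 1063 of the 2582 kept ones (41.2%).

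**Figure D1:**
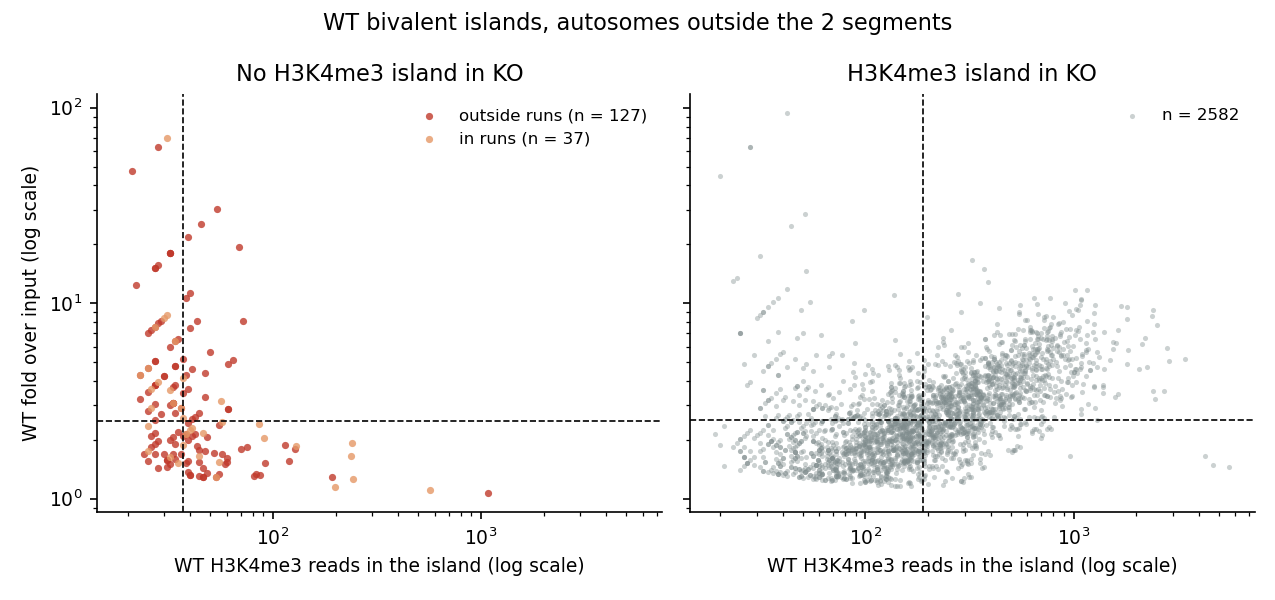
WT H3K4me3 reads per island (horizontal, log scale) against WT fold over input (vertical, log scale), 1 point per WT bivalent island, for the 164 islands with no KO H3K4me3 island (left) and the 2582 with one (right). Dashed lines are medians: 37 against 190 reads and 2.50 against 2.52-fold; the 2 KO-negative points with most reads (1084 and 570) lie at 1.06 and 1.1-fold.

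Over all 164, the WT H3K27me3 islands that the KO-negative islands overlapped held a median of 269 reads over 8200 bp, against 157 reads over 5400 bp for kept islands, with median folds of 2.26 against 2.12. The difference in reads and width rests largely on the 37 islands in crowded runs described below (medians of 612 reads and 14800 bp). In the 127 others the medians were 201 reads (rank-based 95% interval 147 to 304) and 6200 bp (5000 to 9600), intervals that include the kept medians. For the fold it was otherwise, with a median of 2.43 (2.17 to 2.73) in the 127 and 1.83 in the runs, against 2.12 (2.07 to 2.17) for kept islands. A KO-negative island lay wholly inside its H3K27me3 island in 136 of 164 cases (82.9%, 76.3 to 88.3%), whereas a kept island did so in 911 of 2582 (35.3%, 33.4 to 37.2%). The kept islands are wider, which by itself makes lying wholly inside rarer. The 164 islands fell into 143 WT H3K27me3 islands, of which 127 held 1 and 16 held 2 or more, with at most 5 in 1, so they are not 164 independent places.

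Whether a WT bivalent island had a KO partner followed its WT read count closely. All autosomal WT H3K4me3 islands outside the segments were ranked by reads and cut into 5 equal parts. In the part with fewest reads (15 to 44), 114 of 265 bivalent islands had no KO island (43.0%, 37.0 to 49.2%), against 879 of 5124 islands without H3K27me3 (17.2%, 16.1 to 18.2%). In the next part (44 to 88 reads) the shares were 37 of 396 (9.34%, 6.66 to 12.6%) and 269 of 4993 (5.39%, 4.78 to 6.05%). Without the crowded runs the bivalent share in this part was 30 of 389 (7.71%, 5.26 to 10.8%), and the intervals overlapped. From 88 to 241 reads they were 10 of 1017 (0.983%) and 24 of 4372 (0.549%), with overlapping intervals. Above that, 3 bivalent islands remained, 2 of 788 in the fourth part and 1 of 280 in the fifth, against 0 of 4601 (up to 0.0801%) and 0 of 5109 (up to 0.0722%) islands without H3K27me3.

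The gap between bivalent and other islands was also present at matched reads and width, up to 44 reads. Among islands of 15 to 29 reads and at most 1000 bp, 41 of 80 bivalent islands had no KO island (51.2%, 39.8 to 62.6%), against 329 of 1682 others (19.6%, 17.7 to 21.5%). Among islands of 30 to 44 reads and 1200 to 3000 bp the shares were 48 of 96 (50.0%, 39.6 to 60.4%) against 307 of 1359 (22.6%, 20.4 to 24.9%). In the lowest part of the ranking the gap was wider where no other kept H3K4me3 island lay within 5 kb: 54 of 119 bivalent islands (45.4%, 36.2 to 54.8%) against 261 of 2582 others (10.1%, 8.97 to 11.3%). With a kept island within 5 kb the shares were 60 of 146 (41.1%, 33.0 to 49.5%) and 618 of 2542 (24.3%, 22.7 to 26.0%). Without the 5 crowded runs described below, the bivalent share in the lowest part was 91 of 241 (37.8%, 31.6 to 44.2%), and 33 of 98 (33.7%, 24.4 to 43.9%) where no kept island lay within 5 kb.

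**Figure D2:**
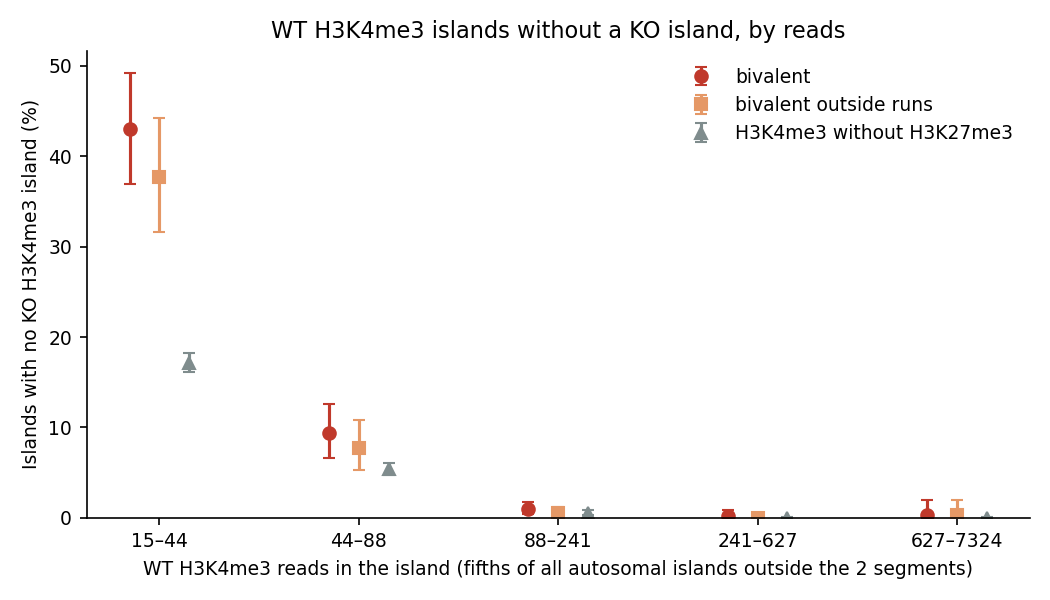
Percentage of WT H3K4me3 islands with no KO H3K4me3 island in 5 equal parts of WT reads, for bivalent islands, bivalent islands outside the runs, and islands without H3K27me3; bars are exact binomial 95% intervals. The share is 43.0, 37.8 and 17.2% in the part with 15 to 44 reads and below 1% in all 3 groups from 88 reads up.

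At the edge of the rule, islands were separated by short stretches. Some KO-negative islands abutted a KO island at 0 bp without sharing a base, and 3 are given. The first, chr11:21273201-21274400, with 33 reads and 3.09-fold over input, began where a KO island of 875 reads and 11.6-fold ended. Another, chr12:45324601-45325600, with 29 reads and 8.15-fold, adjoined a KO island of 223 reads. The third, chr15:102858801-102859800, with 31 reads and 1.45-fold, adjoined a KO island of 116 reads and lay in a WT H3K27me3 island of 156 kb that held 10 kept H3K4me3 islands. Just outside the rule, chr1:82718001-82719400 (38 reads, 7.12-fold), chr11:23972201-23973800 (42 reads, 2.62-fold) and chr11:94331201-94332600 (33 reads, 1.55-fold) counted as kept through an overlap of 200 bp each, with KO islands of 870, 895 and 349 reads.

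Outside the crowded runs, the KO-negative islands were mostly neighbours of H3K4me3 that remained. A run was taken as 3 or more of them with starts at most 200 kb apart, a grouping made after the positions were seen, and 127 of the 164 lay outside runs. Of these, 76 had a KO H3K4me3 island within 5 kb (59.8%, 50.8 to 68.4%) and 48 within 1 kb (37.8%), at a median distance of 2200 bp. The 1172 WT islands without H3K27me3 and without a KO island were nearer still, with 849 within 5 kb (72.4%, 69.8 to 75.0%) and a median of 1400 bp. In 71 of the 76 cases the neighbouring KO island overlapped a WT H3K4me3 island. Those neighbours, 68 distinct KO islands, had a median of 4.92-fold over input in KO and 3.74-fold in WT, and the fold was higher in KO in 58 of 71. That is not particular to them: over all 23244 autosomal KO H3K4me3 islands with a WT partner, the fold was higher in KO in 20761 (89.3%), and over the 2163 bivalent ones in 1969 (91.0%). Their median width was 5000 bp in both genotypes, and they were wider in KO in 39 and narrower in 29. Their edge lay closer to the KO-negative island in KO in 35 cases, at the same place in 16 and farther in 20, with a median gap of 600 bp in both. The neighbour was picked as the nearest KO island and could abut at 0 bp, whereas no WT gap was below 400 bp. These counts were therefore in part set in advance and show no shift of the edge.

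In 60 of the 127, the WT H3K27me3 island also held a kept H3K4me3 island. The strongest kept island there had a median of 328.5 WT reads and lay a median of 900 bp away. It held 2.12 to 101 times the reads of the KO-negative island, with a median of 8.74 times, and in none of the 60 did the KO-negative island have more. KO-negative islands held few reads in general and the strongest kept island was taken, so this order was largely set in advance. The broad domain at chr15:102752601-102908600 is an example: its strongest kept island held 272 reads and the KO-negative island 31. At chr2:17957801-17958600, 25 reads stood in a 33.2 kb H3K27me3 island whose strongest kept island held 2531. At chr2:105500201-105501200, 44 reads stood beside kept islands of up to 226 reads. At chr12:58650401-58651000, 25 reads stood beside kept islands of up to 328 reads. At chr5:106876601-106877800 and chr5:106891001-106892200, in the same 30.8 kb H3K27me3 island, the counts were 30 and 31 against up to 229. These last 5 were chosen after their values were seen, as the islands with most H3K27me3 reads around them after the chromosome 15 one.

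For the other 67, the KO-negative island was the sole H3K4me3 or stood only with others like it in the H3K27me3 island, and the nearest KO H3K4me3 island was a median of 14600 bp away, against 600 bp for the 60 that shared one. Their H3K27me3 islands were narrower, with a median of 5000 bp and 110 reads, against 11900 bp and 438 reads. H3K4me3 itself was alike in both sets, at medians of 36 and 37 reads and 2.44 and 2.74-fold over input.

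**Figure D3:**
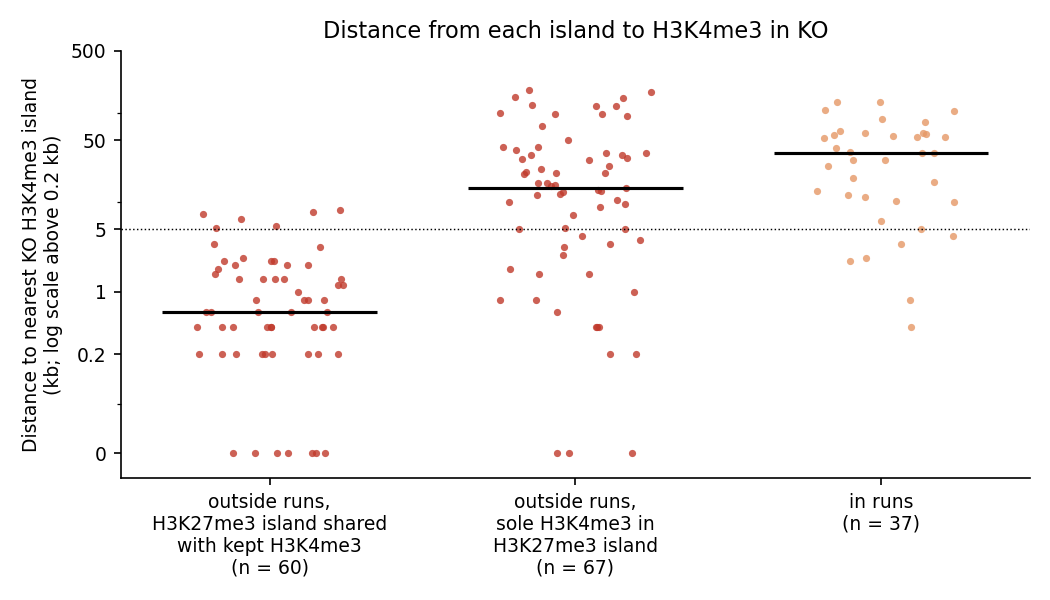
Distance from each of the 164 KO-negative islands to the nearest KO H3K4me3 island (vertical, kb, log scale above 0.2 kb), for 60 islands outside runs whose H3K27me3 island holds a kept H3K4me3 island, 67 without one, and 37 in runs; black bars are medians and the dotted line is 5 kb. The medians are 600, 14600 and 35400 bp.

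The remaining 37 KO-negative islands lay in 5 runs. The run with most of them, chr8:71952001-72111600, held 12 among 16 WT H3K4me3 islands over 159.6 kb, and 1 KO island. Their reads ran from 23 to 86 and their folds from 1.51 to 7.59. The run at chr5:14906801-15206600 held 9 of 10 WT islands, with 25 to 243 reads, and the run at chr8:19742201-19909600 held 6 of 10, with 28 to 570 reads. The runs at chr14:43998201-44108800 and chr3:105962001-106100400 held 5 of 6 WT islands each, with 25 to 46 and 26 to 37 reads. A KO H3K27me3 island overlapped 34 of these 37 islands, against 67.2% of all kept islands and 96.5% of the kept islands in the fifth with most WT H3K27me3 reads (418 to 11319).

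Under all 5 runs the ratio of KO to WT input per kb was above its value over all autosomal H3K27me3 regions called in both genotypes, 1.26. In such regions input stood at 21.0 reads per kb in KO and 11.6 in WT (1.81 times) in the chr8:71952001-72111600 run, and at 39.2 against 21.9 (1.79 times) in the chromosome 5 run. It stood at 63.6 against 37.7 (1.69 times) in the chr8:19742201-19909600 run, at 19.3 against 9.95 (1.94 times) on chromosome 14, and at 8.63 against 3.58 (2.41 times) on chromosome 3. The H3K27me3 fold over input in the same regions was 1.64 in KO and 1.86 in WT in the first of these runs, 1.57 and 1.69 on chromosome 5, 1.20 and 1.32 in the other chromosome 8 run, 1.74 and 2.16 on chromosome 14, and 2.42 and 4.69 on chromosome 3. Input enters this fold as its divisor, and its part in the absence of a KO H3K4me3 call was not tested.

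Chromosomes 8, 14 and 5 had the most KO-negative islands. On chromosome 8 there were 21 among 143 WT bivalent islands (14.7%), of which 3 lay outside runs. On chromosome 14 there were 20 of 112 (17.9%), 15 of them outside its run, and on chromosome 5 19 of 163 (11.7%), 10 of them outside. Chromosome 1 had 16 of 198 (8.08%) with no run, the most outside runs, followed by chromosome 14. At the low end, chromosome 10 had 2 of 133 (1.5%).

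The KO-negative islands with most reads were places of many input reads, and the first 10 had folds of 1.06 to 1.93. The one with most, chr1:24618201-24623000, held 1084 H3K4me3 and 573 input reads, a fold of 1.06, at 115.4 input reads per kb in its H3K27me3 island, and had no KO H3K27me3 island. It alone is why the ranking's last part has an entry, and without it the 164 islands held 8213 reads. Of the 10 with most reads, 4 were in the chr8:19742201-19909600 run, among them chr8:19765201-19776400 with 570 reads against 291 in input (1.1-fold) and chr8:19751401-19754800 with 240 against 70 (1.93-fold). In the chromosome 5 run lay chr5:15146601-15152400, with 243 against 108 (1.26-fold), and chr5:15176001-15180000, with 199 against 98 (1.14-fold). An island on chromosome 18 held 192 against 84 (1.28-fold). The last 2 were of another kind, set in broad H3K27me3 close to KO H3K4me3: chr4:22420201-22424200, with 127 against 40 (1.78-fold), lay 400 bp from a KO island, and chr9:24580401-24582800, with 119 against 43 (1.56-fold), lay 600 bp from one. At the first of these H3K27me3 stood at 3.56-fold over 11400 bp in KO and 3.69-fold over 20400 bp in WT. At the second it stood at 2.08-fold over 19800 bp in KO and 2.39-fold over 18800 bp in WT.

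The highest WT H3K4me3 folds came from islands with 0 or 1 input read, for which the fold is set by that count. No input read, with 0.25 in its place, was found at 3 of them: chr3:106062201-106063200 with 31 H3K4me3 reads, chr19:61258201-61259200 with 28 and chr1:34809801-34810200 with 21. With 1 input read, chr7:97627601-97629200 held 54 H3K4me3 reads (30.4-fold) and abutted a KO island of 933 reads. Also with 1, chr4:14757201-14758800 held 45 (25.3-fold), and it had the highest WT H3K27me3 fold as well, 33.4 from 56 reads over 1 input read. Its H3K27me3 was still called in KO, at 3.61-fold from 63 reads over 17, and a KO H3K4me3 island of 45 reads lay 800 bp away. The next highest H3K27me3 folds were 19.1 at chr1:78490201-78491000, 11.6 at chr5:123884801-123885800, 11.3 at chr13:22079201-22081800 and 10.4 at chr11:110195201-110196800. They rested on 1 to 9 input reads, and among these 4 only the chromosome 11 island overlapped a KO H3K27me3 island, of 2.60-fold.

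A few KO-negative islands stood clear of KO H3K4me3 and had both marks well above input. Of the 51 outside runs with no KO island within 5 kb, 14 had a fold of 2 or more in both marks, and 5 of the 7 with most reads are given here, chosen after their values were seen as those with a KO H3K27me3 island. At chr16:3243001-3245000, 72 H3K4me3 reads over 5 input reads (8.09-fold) lay 100.2 kb from the nearest KO H3K4me3 island, with H3K27me3 at 2.22-fold in KO and 3.55-fold in WT and 17.3 against 7.31 input reads per kb. At chr1:173472201-173474000, 61 reads over 7 (4.90-fold) lay 36 kb away, with H3K27me3 at 1.95-fold in KO and 4.73-fold in WT and 16.0 against 6.20 input reads per kb. At chr6:100815801-100817200, 36 reads over 7 (2.89-fold) lay 13.2 kb away, with H3K27me3 at 3.02-fold in KO and 5.01-fold in WT and 9.50 against 4.55 input reads per kb. At chr1:141950401-141951600, 33 reads over 5 (3.71-fold) lay 124.2 kb away, with H3K27me3 at 3.04-fold in KO and 4.17-fold in WT and 6.54 against 3.27 input reads per kb. At chr1:140727401-140728400, 41 reads over 11 (2.09-fold) lay 6.6 kb away, and H3K27me3 stood at 2.98-fold in KO and 2.38-fold in WT, with 6.73 against 9.90 input reads per kb. This island was less isolated, as its WT H3K27me3 island also held 2 kept H3K4me3 islands of up to 179 reads. In 4 of these 5 places the unscaled input per kb was higher and the H3K27me3 fold lower in KO than in WT. In the fifth both were the other way round. There the called H3K27me3 islands measured 5200 bp in KO and 20800 bp in WT, so the reversal sets unlike spans side by side. In the other 4 the widths were 2000 to 10000 bp in KO and 2200 to 7800 bp in WT.

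H3K27me3, whose KO list the rule did not use, was still called at most KO-negative islands. A KO H3K27me3 island overlapped 123 of the 164 (75.0%, 67.7 to 81.4%), against 1735 of the 2582 kept islands (67.2%, 65.3 to 69.0%), and 41 of the 164 had neither mark called in KO. Among all WT H3K27me3 islands in the same autosomal space, 3684 of 7597 had a KO partner (48.5%). The share followed the WT H3K27me3 reads. In the lowest of 5 equal parts by those reads (25 to 71) it was 10 of 28 KO-negative islands (35.7%) against 28.9% of kept ones, and in the highest (418 to 11319) 63 of 67 (94.0%) against 96.5%. In all 5 parts the 95% intervals of KO-negative and kept islands overlapped. Outside runs 89 of 127 had a KO H3K27me3 island (70.1%, 61.3 to 77.9%).

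The ratio of KO to WT input was high under the KO-negative islands more often than under kept ones. Each input density was taken over the H3K27me3 islands called in that genotype. Their widths often differed, so KO and WT values do not cover the same span. Where both genotypes had an H3K27me3 island, unscaled density was at least 1.5 times as high in KO at 68 of 123 KO-negative islands (55.3%, 46.1 to 64.3%). The same held at 313 of 1735 kept ones (18.0%, 16.3 to 19.9%). Medians were 13.3 reads per kb in KO and 9.45 in WT under KO-negative islands, and 10.0 in KO and 8.80 in WT under kept ones. These medians count every WT H3K27me3 island, also those with no KO partner. Outside runs the share was 40 of 89 (44.9%, 34.4 to 55.9%). It differed by setting: 32 of 43 where the KO-negative islands had no kept H3K4me3 in their H3K27me3 island (74.4%, 58.8 to 86.5%) and 8 of 46 where they had (17.4%, 7.82 to 31.4%), the second being close to the share under kept islands. The 43 are not independent places. For instance, chr1:85078201 and chr1:85090001 lay in 1 H3K27me3 island, with 44.1 input reads per kb in KO and 22.7 in WT. Further ones were scattered from chr14:3125801 to chr14:8375001 without meeting the limit for a run, and of these chr14:3125801 and chr14:3129001 lay in 1 H3K27me3 island. Kept islands are a low reference: regions with them alone had a pooled KO over WT input ratio of 1.05. Over all autosomal H3K27me3 regions called in both genotypes it was 1.26. The part of input in the missing KO H3K4me3 calls was not tested.

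**Figure D4:**
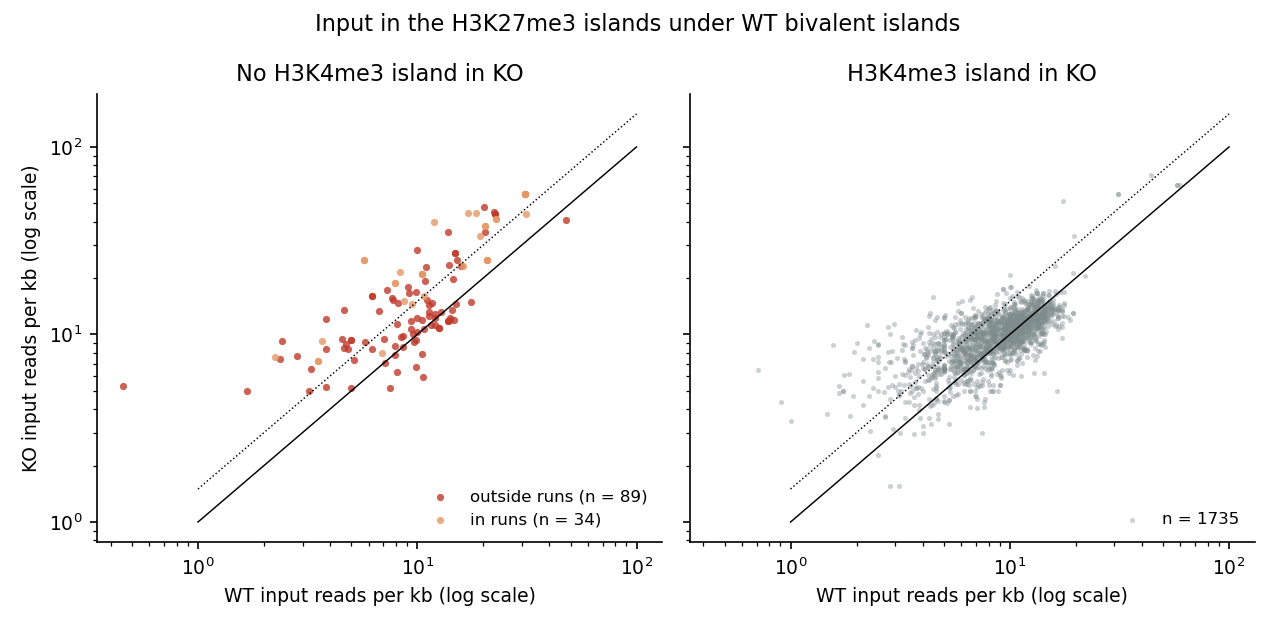
Unscaled input reads per kb in the H3K27me3 islands under WT bivalent islands, KO (vertical) against WT (horizontal), both log scale, for islands with no KO H3K4me3 island (left, 123 with a KO H3K27me3 island) and with one (right, 1735); solid line equal, dotted line 1.5 times. Each density is over the islands called in that genotype, whose widths can differ. Input per kb was at least 1.5 times as high in KO at 68 of 123 on the left and 313 of 1735 on the right, and all 34 points in runs lie above the solid line.

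The H3K27me3 fold over input was lower in KO than in WT at these places, and by how much followed the input. KO and WT H3K27me3 islands were merged into regions, each counted once, and 106 of the 140 regions with a KO-negative island had 20 or more reads in both libraries. Pooled over the 106, the fold was 1.51 in KO and 1.84 in WT, against 2.16 in KO and 2.23 in WT over 1400 regions with kept islands alone. On the log2 scale the KO over WT fold had a median of −0.19 (rank-based 95% interval −0.25 to −0.14), against −0.04 (−0.06 to −0.01) at kept islands and −0.15 over all 3136 such autosomal regions. The KO fold was lower in 86 of 106 regions (81.1%, 72.4 to 88.1%), against 746 of 1400 (53.3%, 50.6 to 55.9%) and 1954 of 3136 overall (62.3%). Unscaled input per kb in these regions was 1.64 times as high in KO for KO-negative islands (25.6 against 15.6), 1.05 times for kept islands (10.4 against 9.93), and 1.26 times overall (11.9 against 9.49).

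In regions whose unscaled input per kb was within 1.25 times in both genotypes, a split made after the values were seen, the fold was lower in KO in 28 of 40 regions with KO-negative islands (70.0%), with a median log2 ratio of −0.11 (−0.18 to −0.04). It was lower in 277 of 732 regions with kept islands (37.8%), with a median of 0.08 (0.06 to 0.12). Where KO input was more than 1.25 times WT input, the medians were −0.29 over 62 regions and −0.45 over 520 regions. Measured by reads instead, each library scaled to its total in all shared H3K27me3 regions, the median log2 KO over WT ratio was 0.00 (−0.14 to 0.32) for regions with KO-negative islands and −0.21 (−0.25 to −0.18) for regions with kept islands alone. Over all 3136 autosomal regions it was 0.07 (0.03 to 0.10), inside the interval for KO-negative islands. Outside runs the KO-negative median was −0.06 (−0.41 to 0.14). The direction of H3K27me3 at KO-negative islands therefore depends on the measure.

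**Figure D5:**
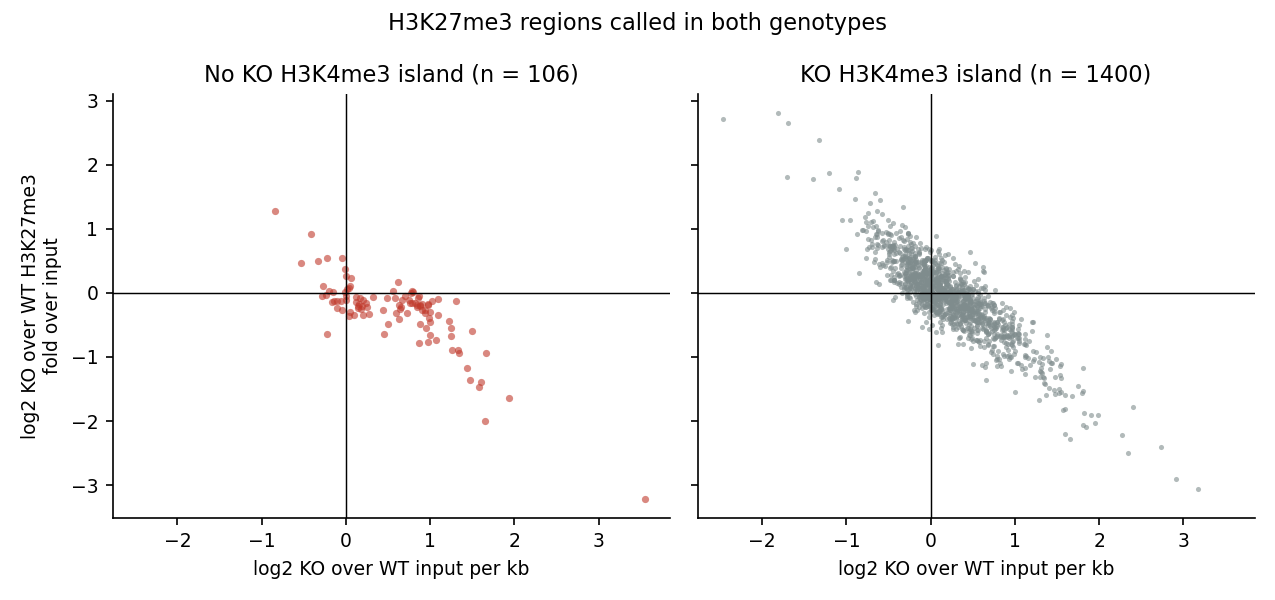
Log2 KO over WT H3K27me3 fold over input (vertical) against log2 KO over WT input per kb (horizontal), 1 point per H3K27me3 region with 20 or more reads in both libraries, for 106 regions with a KO-negative island (left) and 1400 with kept islands alone (right). Input is the divisor of the fold, so the downward slope is in part built in; 86 of 106 points on the left and 746 of 1400 on the right lie below 0.

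The 2 autosomal segments held 100 further KO-negative islands packed close together. On chromosome 4, 75 of 199 WT bivalent islands had no KO H3K4me3 island, spread from 145087201 to 147163000 among 124 kept ones. They held 20 to 343 reads, with a median of 45, against a median of 125 in the kept ones, and a median of 3.09-fold against 3.05-fold. The 3 with most reads were chr4:146801401-146808600 with 343 over 136 input reads (1.42-fold), chr4:146995401-147002000 with 257 over 63 (2.29-fold) and chr4:146958001-146961600 with 137 over 24 (3.21-fold). A KO H3K27me3 island overlapped 57 of the 75 (76.0%), against 92 of the 124 kept ones (74.2%), and the H3K27me3 fold was lower in KO in 38 of 38 regions, pooled 1.55 in KO against 2.38 in WT. Unscaled input stood at 17.4 reads per kb in KO and 9.55 in WT, a ratio of 1.82 against the 1.26 over all regions.

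On chromosome 13, all 25 WT bivalent islands of the segment were KO-negative, between 12856801 and 13034600, and no KO H3K4me3 island lay in that span. They held 28 to 101 reads and 1.48 to 19.1-fold over input. The 3 with most reads were chr13:13001201-13005000 with 101 (2.10-fold), chr13:12962601-12966000 with 95 (4.45-fold) and chr13:13013601-13016200 with 74 (3.20-fold), all in 1 WT H3K27me3 island of 87.2 kb. KO H3K27me3 covered all 25, in 3 islands where WT had 15, at 1.94-fold in KO and 3.22-fold in WT. Unscaled input was 17.1 reads per kb in KO and 6.87 in WT, a ratio of 2.49.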

How the data were processed

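The 4 ChIP island lists, 1 per genotype and mark, were analysed; the KO H3K27me3 library, titled with a misspelt mark (H2K27me3), was taken as H3K27me3 from its antibody label. A further 4 nuclease and 2 input libraries have no profile used here. Per the submitters' processing notes, the authors used Bowtie (version not given in the sources used here), SICER 1.1 and mm9. Per the file names, the window was 200 bp, the gap 200 bp (H3K4me3) or 600 bp (H3K27me3) and the FDR 0.05. Each deposited list gives ChIP and control read counts per island, neither scaled, the authors' p-value, fold over input (a ratio) and adjusted p-value. The deposited fold equals ChIP over control counts times 1 constant per list, with 0.25 for a control count of 0; its inverse, the ChIP to input depth, was 1.35 for KO and 1.78 for WT H3K4me3, and 1.03 for KO and 1.68 for WT H3K27me3. Duplicate handling is not given in the sources used here.

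Positions are 1-based in mm9. Islands overlapping by 1 bp were matched in Python 3.11.15 (numpy 2.4.6, pandas 2.3.3, scipy 1.17.1, figures with matplotlib 3.10.9); bedtools 2.31.1 gave the same 318 members. Overlapping KO and WT H3K27me3 islands were merged, reads summed, and folds recomputed. Reads, input and widths were those of each genotype's own islands, so KO and WT spans can differ. Regions with 20 or more reads in both libraries were compared. The calculation was tested on simulated data. Shares carry 95% Clopper-Pearson (exact binomial) intervals and medians rank-based ones; both treat islands as independent and cover counting error, not the spread between libraries. Alternatives concerned overlap, FDR, fold, reads, distance, list length, input density, scaling and runs.

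Regions named are the 10 members with most H3K4me3 reads, the 5 highest folds of each mark, 3 per segment, and 3 on each side of the overlap limit; others are said to have been chosen after their values were seen. The members, rules and lists were chosen with earlier results of these data known. Planned gene lists were not used, for want of an mm9 annotation, and no sequence was printed.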

Additional observations from a re-analysis of the deposited data

How the results depend on the processing

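No paired analysis was possible because each genotype and mark has 1 library, and the libraries with shared replicate numbers, those of nuclease digestion, were not used. Depth outside islands is unknown, so a missing KO call cannot be told apart from a weak signal below the caller's threshold. Over the 6 results, 35 comparisons with an alternative stayed inside the reported interval or count margin (1.5 times), 25 fell outside it and 1 changed sign; the causes were not tested, except that settings which drop islands or shorten a list change counts by construction. The 2 settings that leave out runs were chosen after seeing the data.

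The count of 164 became 82 with a fold of 2 or more in every list, 39 with 50 or more WT H3K4me3 reads, 81 with no KO H3K4me3 island within 5 kb, and 266 with the KO H3K4me3 list cut to the WT number. The share of 5.97% became 9.01% with 50% overlap of the smaller island, 1.61% with 50 or more reads, 4.15% and 2.95% with no KO island within 1 kb and 5 kb, 9.69% with the cut KO list, and 4.70% and 4.28% without runs of up to 200 kb and 500 kb between starts. The share with KO H3K27me3, 75.0%, became 48.8% with a fold of 2 or more, 84.6% with 50 or more reads and 87.7% with no KO island within 5 kb.

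The median H3K4me3 fold of 2.50 became 3.65 at an FDR of 1e-05, 4.29 with a fold of 2 or more, 1.72 with 50 or more reads, 2.08 and 2.09 with no KO island within 1 kb and 5 kb, and 2.09 with the cut KO list. The median H3K27me3 fold of 2.26 became 2.73 at that FDR, 3.30 with a fold of 2 or more, 1.99 with 50 or more reads and 2.04 with no KO island within 5 kb. The median log2 KO over WT H3K27me3 fold of −0.19 became −0.26 with a fold of 2 or more, and with reads scaled to all shared H3K27me3 regions it was 0.0011, of the opposite sign and indistinguishable from 0.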

Other observations

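The rule turned round, KO bivalent islands with no WT H3K4me3 island, found more islands in the same autosomal space. There were 516 among 2679 KO bivalent islands (19.3%, exact binomial 95% interval 17.8 to 20.8%), against 15587 of 36668 KO H3K4me3 islands without H3K27me3 (42.5%). The KO list of H3K4me3 islands is the longer one. Their median read count was 57.5, their median width 1600 bp and their median fold 2.15, against 224 reads, 3400 bp and 3.86-fold for the 2163 with a WT island. A WT H3K27me3 island overlapped 386 of the 516 (74.8%, 70.8 to 78.5%), and 172 lay within 5 kb of a WT H3K4me3 island, at a median distance of 14700 bp over all 516.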
